A study of Homo sapiens with 2 samples.

Results

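The Hippo pathway genes described here are 10 rows of the deposited expression table, chosen by symbol out of 25343 rows. They are the coactivators YAP1 and WWTR1, the DNA-binding factors TEAD1, TEAD2, TEAD3 and TEAD4, the kinases LATS1 and LATS2, and the angiomotin-like proteins AMOTL1 and AMOTL2. RNA was sequenced from C4-2B ENZR cells (n = 1 library), which resist the antiandrogen enzalutamide and grew in medium with 20 µM of it, and from C4-2B Con cells (n = 1 library), their enzalutamide-sensitive counterparts, which grew in parallel with DMSO. Both are sublines of C4-2B, a castration-resistant human prostate cancer line of the LNCaP lineage, and both sample titles end in shC, a tag the labels leave unexplained. The drug was present only in the ENZR culture, so resistance and exposure cannot be told apart. The labels do not say whether ENZR is 1 clone or a pool.

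In the Hippo pathway a kinase cascade ends in LATS1 and LATS2, which phosphorylate YAP1 and WWTR1 (also called TAZ) and so hold them in the cytoplasm. Unphosphorylated YAP1 and WWTR1 enter the nucleus and act through TEAD factors, which supply the DNA binding that the coactivators lack. Angiomotins bind YAP1 at junctions and actin and also activate LATS kinases, and AMOTL2 and LATS2 are themselves targets of YAP1 and TEAD. The pathway limits organ size and proliferation in epithelia. Its main control is by phosphorylation and location of the proteins, which RNA levels do not show.

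The TEAD genes are close paralogs, and the sequence below shows how close. It is the 60-base stretch of their reading frames with the most bases shared by all 4 genes, 43 of 60, written in capitals, from GENCODE 29 transcripts. TEAD1 lies on chromosome 11, TEAD2 on 19, TEAD3 on 6 and TEAD4 on 12. It lies toward the end of the reading frame, in the part that encodes the YAP-binding domain of the protein.
TEAD1: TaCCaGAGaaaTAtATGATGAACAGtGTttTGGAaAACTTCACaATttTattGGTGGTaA
TEAD2: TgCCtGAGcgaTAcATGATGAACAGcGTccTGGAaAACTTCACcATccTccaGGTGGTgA
TEAD3: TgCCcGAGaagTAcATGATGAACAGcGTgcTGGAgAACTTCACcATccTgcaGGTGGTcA
TEAD4: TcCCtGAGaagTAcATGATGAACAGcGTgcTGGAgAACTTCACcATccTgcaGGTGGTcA
The reads were 50 bases long, per the labels. TEAD3 and TEAD4 share an unbroken run of 56 bases, so 7 of the 50-base reads that TEAD3 can give also match TEAD4. The longest run between any other pair of TEAD genes was 32 bases, between TEAD2 and TEAD3. No 50-base stretch of the longest TEAD1 or LATS2 transcript occurred in a transcript of another gene. For the others, 0.239% (TEAD3) to 10.5% (YAP1) of such stretches did. WWTR1 shares 244 of them with its antisense gene WWTR1-AS1, and TEAD2 shares 222 with CD37 on the opposite strand. YAP1, LATS1 and AMOTL1 share 533, 359 and 447 with another gene each, whose strand was not recorded here. The use of strand in counting is not given in the sources used here either. Reads in those shared stretches thus cannot be assigned with certainty. The table gave WWTR1-AS1 25 reads in ENZR and 25 in Con.

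The second set shows the short DNA motif of TEAD factors, GGAATG or on the other strand CATTCC, where a script found it near the start of these genes. The search covered the 250 bases before and 50 after each RefSeq start in GRCh38.p14. Of the 8 members with such a window, 3 held a match, beside 14.0% of all 35116 windows. Members with several starts have several windows, which raises their chance of a match. TEAD1 and TEAD4 are not in that table. Each line gives 30 bases on the gene's strand with the motif in capitals, and the offset counts from the annotated start.
YAP1: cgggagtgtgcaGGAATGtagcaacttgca
LATS2: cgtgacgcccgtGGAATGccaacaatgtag
AMOTL2: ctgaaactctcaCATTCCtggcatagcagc
These lie at chr11:102110273-102110302 on the plus strand, and at chr13:21061560-21061589 and chr3:134374499-134374528 on the minus strand. The motif starts 162 bases before the YAP1 start and 69 before 1 of the AMOTL2 starts, and 9 bases after the LATS2 start. For comparison, of 15 YAP1/TEAD target genes with a window, from the list described below, 7 held a match (46.7%). The most were in CTGF (now CCN2), a classical YAP1 target that encodes a secreted matricellular protein. CTGF has 3 matches within 92 bases at chr6:131951456-131951547 on the minus strand.
CTGF: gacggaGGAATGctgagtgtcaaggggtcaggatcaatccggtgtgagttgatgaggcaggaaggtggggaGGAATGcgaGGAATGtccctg
A match is a description of the sequence and no evidence of binding, and a missing match says only that these letters are not in the window.

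Reads recovered from the deposited values totalled 23479051 in ENZR and 21024484 in Con. Values are TMM-scaled CPM, a gene's reads per 1000000 reads of its library after the authors' TMM scaling for library composition. With 1 library per group there is no replicate and no test of the conditions. The counting interval given with a ratio is the exact 95% binomial (Clopper-Pearson) interval of the 2 read counts. It covers counting error only and compares 2 libraries. A gene counted as measured had a mean of 1 CPM or more over both libraries (13803 genes), and 2-fold was judged on log2(CPM + 1), which understates the change of low genes. Luminal prostate markers were detected in both libraries. Summed over 9 of them the level was 2450 CPM in ENZR and 4057 CPM in Con. Of the 9, 7 were lower in ENZR and 2 higher, FOLH1 at 994 CPM in ENZR and 712 CPM in Con and KRT8 at 340 CPM in ENZR and 268 CPM in Con. KLK3, the gene for prostate-specific antigen, at 3.72 CPM in ENZR and 1428 CPM in Con, made up most of the gap between the sums, which without it were 2446 CPM in ENZR and 2629 CPM in Con. The basal markers KRT5 and TP63 had 0 reads in both libraries. The summed levels were 0.121 CPM in ENZR and 0.392 CPM in Con for 4 basal markers, 2.30 CPM in ENZR and 1.81 CPM in Con for 4 endothelial markers, and 1.42 CPM in ENZR and 1.71 CPM in Con for 4 neuroendocrine markers. They were 15.2 CPM in ENZR and 19.0 CPM in Con for 4 leukocyte markers and 47.4 CPM in ENZR and 20.8 CPM in Con for 6 stromal markers. The part of these lists in the results below was not tested. The stromal sum was mostly COL1A1 (44.4 CPM in ENZR and 18.1 CPM in Con). LUM had 32 reads in ENZR and 0 in Con, and DCN had 2 in ENZR and 0 in Con. Other stromal genes went the other way, PDGFRB with 41 reads in ENZR and 50 in Con and COL3A1 with 0 in ENZR and 5 in Con. Of the endothelial genes PECAM1 had the most reads, 41 in ENZR and 32 in Con, a ratio of 1.06 (counting interval 0.650 to 1.73). KDR had 16 reads in ENZR and 4 in Con. Of the leukocyte genes LYZ had 126 reads in ENZR and 60 in Con, and CD68 had 244 in ENZR and 321 in Con. The stromal gene COL1A2, the endothelial CDH5, the T cell gene CD3E and the neuroendocrine INSM1 had 0 reads in both libraries. In bulk RNA, fewer cells of a type and less RNA per cell cannot be told apart.

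All 10 members passed the filter, WWTR1 and AMOTL1 only through their level in Con. TEAD1 was the 1 member of 10 higher in ENZR by 2-fold or more, a mark that 6.69% of all measured genes reached. WWTR1 was the 1 member lower by 2-fold or more, which 4.64% of all measured genes were. For 8 of the 10 members the counting interval did not contain 1, beside 71.2% of all measured genes, so at this depth an interval clear of 1 was the common case. The median log2 ratio of the members was -0.12, and that of all measured genes was -0.01. The members' counts are near the background in each case, with 5 log2 ratios above 0 and 5 below.

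**Figure D1:**
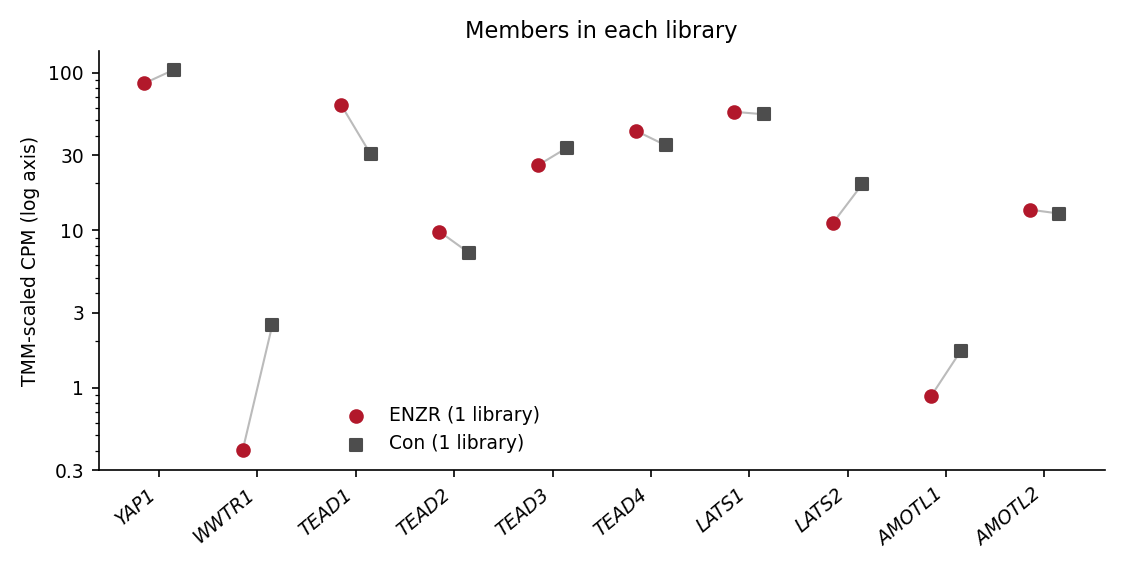
TMM-scaled CPM of each member in the ENZR library (circles, left) and the Con library (squares, right) on a log axis, 1 library each. The lines join the 2 libraries, and the widest gap is that of WWTR1, at 0.404 CPM in ENZR and 2.50 CPM in Con.

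The coactivators differed from each other in both level and ratio. YAP1 had 2122 reads in ENZR and 2134 in Con, which is 85.8 CPM and 105 CPM. Its ratio of ENZR over Con was 0.821 (counting interval 0.773 to 0.872), so it was slightly lower in ENZR. WWTR1, the paralog of YAP1, had 10 reads in ENZR and 51 in Con, or 0.404 CPM and 2.50 CPM, 6.18-fold lower in ENZR (3.10 to 13.7). WWTR1 was a minor part of the pair in each library, at 0.469% of its reads in ENZR (exact interval 0.225% to 0.861%) and 2.33% in Con (1.74% to 3.06%). These shares do not depend on the scaling between libraries. The sum of the pair followed YAP1, at 86.2 CPM in ENZR and 107 CPM in Con, a ratio of 0.805 (0.758 to 0.855).

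The WWTR1 difference rests on few reads. With a pseudocount of 5 CPM its log2 ratio was -0.47 in place of -1.32, short of 2-fold, and a filter of 5 CPM removed it. The measured genes nearest to WWTR1 on the log2 levels of the 2 libraries were PIP5KL1, a phosphoinositide kinase-like gene (11 reads in ENZR and 50 in Con), PGLYRP2, which encodes a peptidoglycan-hydrolysing amidase (11 reads in ENZR and 54 in Con), and ENPP3, an ectonucleotidase (9 reads in ENZR and 47 in Con). A likeness over 2 libraries says only that their levels were alike.

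The TEAD factors diverged. TEAD1 had 1549 reads in ENZR and 622 in Con, or 62.6 CPM and 30.5 CPM, 2.06-fold higher in ENZR (1.87 to 2.26). This is at the 2-fold line: its log2 ratio was 1.02, and 0.93 with a pseudocount of 5 CPM. TEAD4 was at 42.8 CPM in ENZR and 34.7 CPM in Con, a ratio of 1.23 (1.12 to 1.36). TEAD2 was at 9.83 CPM in ENZR and 7.20 CPM in Con, a ratio of 1.36 (1.11 to 1.69). TEAD3 alone of the TEAD genes was lower in ENZR, at 25.8 CPM against 33.5 CPM in Con, a ratio of 0.771 (0.691 to 0.860). Reads of the 4 TEAD genes together were 141 CPM in ENZR and 106 CPM in Con, 1.33-fold higher (1.26 to 1.41). Most of the gap between these sums was that of TEAD1, at 62.6 CPM in ENZR and 30.5 CPM in Con.

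As shares of the family's reads, TEAD1 took 44.4% in ENZR (42.7% to 46.1%) and 28.8% in Con (26.9% to 30.7%). TEAD3 took 18.3% in ENZR (17.0% to 19.6%) and 31.7% in Con (29.7% to 33.7%). TEAD4 took 30.3% in ENZR and 32.8% in Con, and TEAD2 took 6.96% in ENZR and 6.80% in Con, each with intervals that overlapped between the libraries. In Con the share of TEAD1 lay below that of TEAD4, whose interval (30.8% to 34.8%) did not overlap that of TEAD1. The interval of TEAD3 in Con overlapped both. In ENZR, TEAD1 had the most reads of the family.

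**Figure D2:**
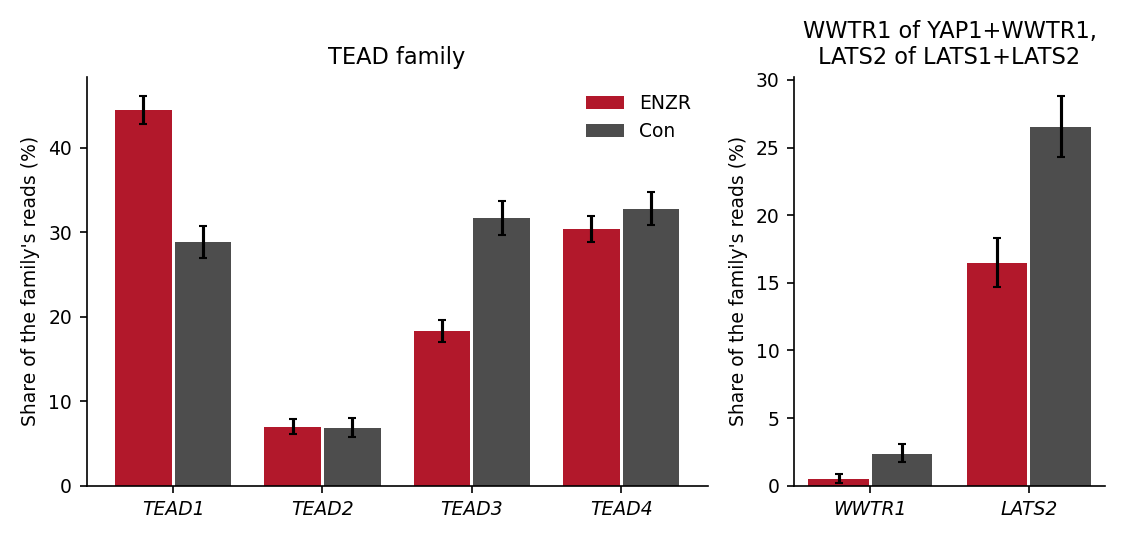
Share of a family's reads, in percent, held by each TEAD gene (left panel), and by WWTR1 of YAP1 plus WWTR1 and LATS2 of LATS1 plus LATS2 (right panel), in ENZR (red) and Con (grey), 1 library each. Bars start at 0 and error bars are exact 95% binomial intervals; TEAD1 stands at 44.4% in ENZR and 28.8% in Con.

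A read share favours long transcripts, so levels were also compared as CPM per kilobase of the longest protein-coding transcript. On that scale TEAD4 led in both libraries, at 25.3 in ENZR and 20.5 in Con, and YAP1 came next at 15.9 in ENZR and 19.4 in Con. In ENZR the order went on with TEAD3 (8.66), LATS1 (7.52), TEAD1 (7.39), TEAD2 (4.03), AMOTL2 (2.996), LATS2 (2.02), AMOTL1 (0.0992) and WWTR1 (0.0804). In Con it went on with TEAD3 (11.2), LATS1 (7.25), TEAD1 (3.59), LATS2 (3.56), TEAD2 (2.95), AMOTL2 (2.83), WWTR1 (0.497) and AMOTL1 (0.191). Neighbours in that order whose counting intervals (exact Poisson, 95%) overlapped were LATS1 and TEAD1, and AMOTL1 and WWTR1, in ENZR. In Con they were TEAD4 and YAP1, TEAD1 and LATS2, LATS2 and TEAD2, and TEAD2 and AMOTL2. The order depends on which transcript the cells use. With the median transcript length YAP1 led, at 35.9 in ENZR and 43.7 in Con, and TEAD1 was at 20.5 in ENZR and 9.95 in Con.

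The LATS kinases parted as well. LATS1 was at 56.5 CPM in ENZR and 54.5 CPM in Con, and its ratio of 1.04 had a counting interval that included 1 (0.958 to 1.12). LATS2 was at 11.1 CPM in ENZR (275 reads) and 19.6 CPM in Con (401 reads), 1.77-fold lower in ENZR (1.51 to 2.07). It held 16.4% of the reads of the LATS pair in ENZR (14.7% to 18.3%) and 26.5% in Con (24.3% to 28.8%). LATS2 lies on chromosome 13, whose 238 other measured genes had a median log2 ratio of -0.54. Its own log2 ratio was -0.77 and the median of its 20 nearest measured genes was -0.58, with 8 of the 20 lower than LATS2. The part of this regional difference in the LATS2 value was not tested.

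**Figure D3:**
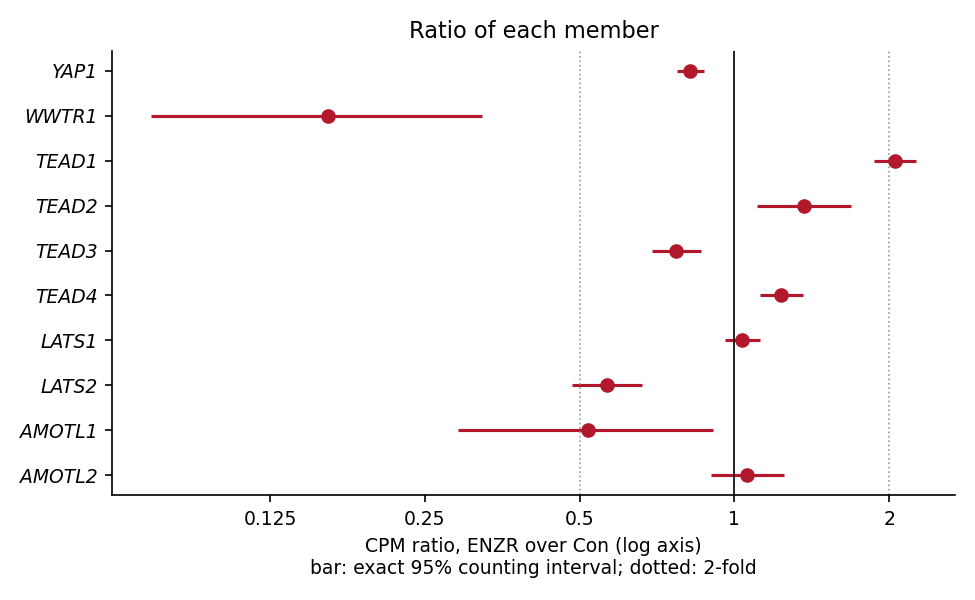
Ratio of CPM in ENZR over Con for each member on a log axis, with the exact 95% counting interval as a bar, a solid line at 1 and dotted lines at 2-fold in either direction. LATS1 and AMOTL2 are the members whose interval includes 1, and the interval of TEAD1 (1.87 to 2.26) crosses the 2-fold line.

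Of the angiomotin-like genes, AMOTL2 was at 13.5 CPM in ENZR and 12.8 CPM in Con, a ratio of 1.06 (0.898 to 1.25). AMOTL1 had 22 reads in ENZR and 35 in Con, or 0.890 CPM and 1.71 CPM, a ratio of 0.519 (0.290 to 0.910). The third gene of this family, AMOT, is no member here but had the most reads of the 3. It was at 40.1 CPM in ENZR and 18.2 CPM in Con, 2.20-fold higher (1.95 to 2.49), and took 73.5% of the family's reads in ENZR (71.1% to 75.9%) and 55.7% in Con (51.8% to 59.5%). AMOT, with a log2 ratio of 1.10, lies on the X chromosome. Its 20 nearest measured genes there had a median of 0.10, and 4 of the 20 lay above AMOT.

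Set beside their own surroundings, the members fell into kinds. TEAD1 (log2 ratio 1.02) lay above all 20 of its nearest measured genes on the chromosome, whose median was 0.20, and WWTR1 (-1.32) lay below 19 of 20, whose median was -0.04. TEAD3 and TEAD4 were close to the medians of their neighbours, at -0.36 against -0.32 and 0.30 against 0.26. TEAD2 stood at 0.40 against -0.15, and AMOTL1 at -0.52 against -0.10. Relative to their neighbours' median, YAP1 was at -0.17, LATS1 at 0.07 and AMOTL2 at -0.10. Gene order came from RefSeq GRCh38.p14, in which 97.8% of measured genes were found.

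**Figure D4:**
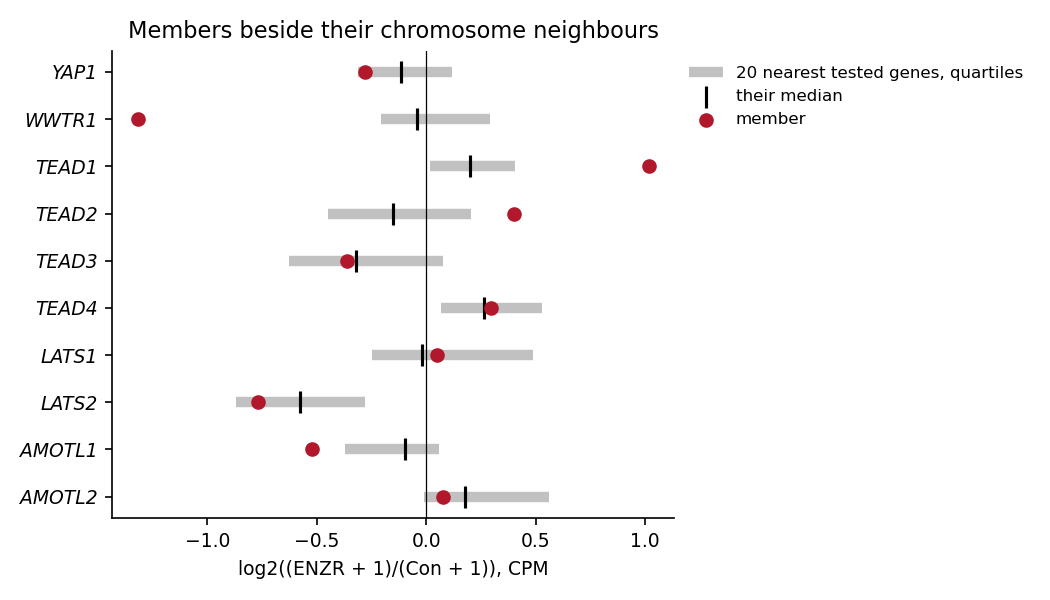
log2((ENZR + 1)/(Con + 1)) of CPM for each member (red points), beside the median (black mark) and the quartile range (grey bar) of its 20 nearest measured genes on the same chromosome. WWTR1 and TEAD1 lie far outside the grey bars, while LATS2 (-0.77) lies inside its bar, which is itself below 0.

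The wider pathway was described by 6 further gene lists, 80 genes in all, of which 68 were measured. Past 2-fold were 9 of these 68, 6 of them higher in ENZR (8.82%) and 3 lower (4.41%), and their median log2 ratio was 0.03. Of all measured genes 6.69% were higher and 4.64% lower, so these counts are near the background. Of the 24 upstream kinases and adaptors, all measured, 2 passed 2-fold, both higher in ENZR (8.33%, also near the 6.69% of all measured genes), and the median was 0.14. TNIK, a kinase of the MAP4K family, was at 8.25 CPM in ENZR and 1.81 CPM in Con, 4.55-fold higher (3.19 to 6.65). FRMD6, a FERM-domain protein related to an upstream fly regulator, was at 13.7 CPM in ENZR and 5.10 CPM in Con, 2.69-fold higher (2.15 to 3.38). WWC2, with 28 reads in ENZR and 48 in Con, was 2.08-fold lower as a plain ratio (1.28 to 3.44). On log2(CPM + 1) it fell short of 2-fold, at -0.65.

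The core genes of the cascade lay within 2-fold, as did 12239 of the 13803 measured genes. STK3, 1 of the MST kinases that activate LATS, was at 31.9 CPM in ENZR and 49.2 CPM in Con, a ratio of 0.649 (0.590 to 0.713), and its paralog STK4 was at 66.7 CPM in ENZR and 51.7 CPM in Con, a ratio of 1.29 (1.19 to 1.39). The scaffold SAV1 had a ratio of 1.00 (0.905 to 1.11) and NF2, the tumour suppressor merlin, 1.01 (0.964 to 1.06). Of the LATS cofactors, MOB1A had a ratio of 0.943 (0.851 to 1.04) and MOB1B of 1.34 (1.24 to 1.45).

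Among cell surface, polarity and junction regulators 13 of 15 were measured, with a median log2 ratio of -0.02. AMOT, which was higher, was the 1 gene past 2-fold (7.69%, near the 6.69% of all measured genes). All 14 listed subunits of the STRIPAK phosphatase complex, which counteracts the MST kinases, were measured and lay within 2-fold. Their log2 ratios ran from -0.57 to 0.51. The 4 listed genes for the turnover of YAP1 and WWTR1, casein kinases and F-box proteins that recognise their phosphorylated products, also lay within 2-fold. Lying within 2-fold was the common case, as it held for 12239 of the 13803 measured genes. Of the VGLL cofactors, which bind TEAD factors in competition with YAP1, VGLL4 was at 107 CPM in ENZR and 73.7 CPM in Con, a ratio of 1.45 (1.36 to 1.54). VGLL3, below the filter, had 21 reads in ENZR and 4 in Con, or 0.849 CPM and 0.196 CPM, a ratio of 4.33 (1.46 to 17.4). VGLL1 and VGLL2 had 0 reads in both libraries, which allows up to 0.121 CPM in ENZR and 0.147 CPM in Con for 3 counts.

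Target genes of YAP1 and TEAD did not move in 1 direction. The list is a 22-gene signature without AMOTL2 and LATS2, which are members here. Of its 20 other genes 13 were measured, 6 of them past 2-fold, with a median of -0.09. Of these 6, 3 were higher in ENZR (23.1%) and 3 lower (23.1%). The corresponding shares of all measured genes are 6.69% and 4.64%. The shares of this list rest on 3 genes each, in a list chosen with earlier results of these data known, and were not tested. Of the higher genes, CCDC80 passed the filter only through ENZR. The lower genes numbered 2 with the TMM scaling undone and 0 with a pseudocount of 5 CPM. The higher genes stayed at 3 in both settings. CTGF, with its 3 motif matches shown above, had 1 read in ENZR and 0 in Con, and ANKRD1, a cardiac and stress-induced target with 2 matches, had 0 reads in both. CYR61 (now CCN1), the paralog of CTGF, was at 6.55 CPM in ENZR and 5.98 CPM in Con, a ratio of 1.10 (0.861 to 1.40). AMOTL2, with a ratio of 1.06, and LATS2, 1.77-fold lower, are the other targets with values above.

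The higher targets were led by CCDC80, a secreted matrix protein, with 510 reads in ENZR and 5 in Con, a ratio of 84.2 (35.8 to 260), and it passed the filter only through ENZR. IGFBP3, which binds insulin-like growth factors, was at 93.0 CPM in ENZR and 4.61 CPM in Con, 20.2-fold higher (16.4 to 25.1). ARHGEF17 was at 40.1 CPM in ENZR and 14.7 CPM in Con, 2.72-fold higher (2.39 to 3.10). The lower ones were CRIM1, a transmembrane protein that binds BMPs (3.24 CPM in ENZR and 8.57 CPM in Con, 2.65-fold lower, 2.02 to 3.50), GADD45B, a stress-response gene (4.93 CPM in ENZR and 11.95 CPM in Con, 2.42-fold lower, 1.94 to 3.04), and DOCK5, an exchange factor for Rac (19.0 CPM in ENZR and 40.2 CPM in Con, 2.11-fold lower, 1.88 to 2.37). Each of these genes has further known regulators, so the list is no readout of YAP1 alone.

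**Figure D5:**
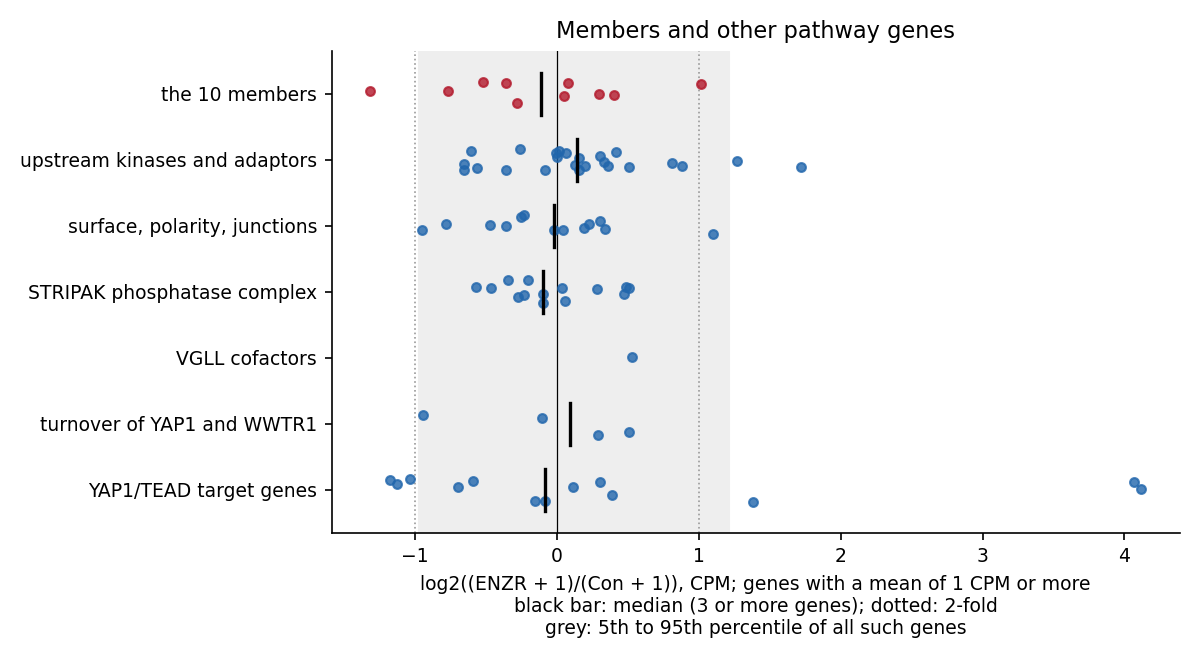
log2((ENZR + 1)/(Con + 1)) of CPM for the 10 members (red, top row) and the measured genes of 6 other pathway lists (blue), with black bars at list medians and dotted lines at 2-fold. The grey band spans the 5th to the 95th percentile of all measured genes, and WWTR1 is the member outside it. Outside it too are TNIK, FRMD6 and 6 target genes, of which CCDC80 and IGFBP3 lie farthest out.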

How the data were processed

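Gene expression was measured by RNA-seq of 50-base single reads in 1 ENZR and 1 Con library. The authors deposited 1 signal value per gene and library, TMM-normalized reads per 1000000, per the file headers and the file's title. RSEM 1.2.15, Bowtie2 2.1.0, hg19 and edgeR are listed in the submitters' processing notes without roles, and the annotation is not given in the sources used here. Every value was a whole multiple of 1 step per column (100% within 0.01 reads), 0.0404 CPM in ENZR and 0.0490 CPM in Con, so whole reads were recovered. RSEM shares out ambiguous reads, so these may be rounded estimates. A quasi-likelihood count test has no residual degrees of freedom with 1 library per group and was not run.

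Ratios, log2((ENZR + 1)/(Con + 1)) and exact binomial intervals were computed with Python 3.11.15, pandas 2.3.3 and scipy 1.17.1, and tested on simulated data. The table held 0 further sample columns. The members and lists were chosen with earlier results of these data known. Named were all members, up to 6 genes past 2-fold per other list, and CTGF, CYR61, ANKRD1, STK3, STK4, SAV1, MOB1A, MOB1B, NF2, AMOT and VGLL4. Named outside that rule, after their values were seen, were VGLL1, VGLL2, VGLL3, WWC2, WWTR1-AS1 and single genes of the marker lists. Transcript lengths and 50-base matches came from GENCODE 29, promoter windows from RefSeq GRCh38.p14. hg19 coordinates were not used here. Alternatives varied the pseudocount, filter, scaling, transcript length and local reference.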

Additional observations from a re-analysis of the deposited data

How the results depend on the processing

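With a pseudocount of 5 CPM, 0 members passed 2-fold upward and 0 downward (1 and 1 as reported). In that setting the counts were also 0 for higher upstream kinases and adaptors (2 as reported), 0 for higher surface and junction regulators (1) and 0 for lower YAP1/TEAD targets (3), and 447 of all measured genes were higher and 371 lower, in place of 923 and 641. A filter at a mean of 5 CPM removed WWTR1 and AMOTL1, which left 0 lower members. It kept 11243 measured genes in place of 13803, of which 577 were higher and 456 lower. Undoing the TMM scaling moved the median log2 ratio of all genes to 0.10 from -0.01 and that of the members to 0.00 from -0.12, and the log2 ratio of YAP1 to -0.17 from -0.28. Of the 10 members, 9 kept the sign of their log2 ratio in every alternative that gave a value, and AMOTL2 was at -0.10 relative to its 20 nearest genes. Relative to those neighbours LATS2 was at -0.19, TEAD1 at 0.82, TEAD3 at -0.04 and TEAD4 at 0.03. Subtracting the chromosome median and using the median transcript length were added after seeing the data. No replicate could be left out, since each group has 1 library. No paired analysis was possible because each group has 1 library and the labels give no replicate number. Depth limits WWTR1 and AMOTL1, with 10 to 51 reads in a library.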
